A study of Canis lupus with 23 samples.

Results

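The extracellular matrix genes described here were 49 genes for matrix glycoproteins, proteoglycans and lysyl oxidases, the collagens left out. They form a list of gene symbols with no threshold on a measured value, written with earlier results of these data known, and their messenger RNA was measured in biopsies of 23 canine tumors, 1 array per tumor and 1 tumor per dog. Of the 49 genes, 46 had a probeset under their symbol in the platform annotation, and 41 of these passed a filter on dim genes, out of 15115 annotated genes and 9972 kept. CTHRC1, SPON2 and LOXL1 had no probeset under their symbol. SPON1, MATN3, FBN2, MFAP2 and LTBP2 were measured but too dim in most tumors to be tested, so no count below covers them. Levels are given as log2(signal + 16), called log2 signal here, with the mean over probesets where a gene had several.

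The tumors were naturally occurring cancers of pet dogs, grouped by the diagnosis in the sample labels: 7 lymphomas, 5 melanomas, 4 sarcomas, 3 transitional cell carcinomas of the bladder (TCC), and 1 each of hepatocellular carcinoma (HCC), nasal tumor, hemangiosarcoma and histiocytic sarcoma. The sarcoma group joined 2 tumors with the diagnosis STS (soft tissue sarcoma, STS 0 and 1) and 2 with the diagnosis Sarcoma (Sarcoma 0 and 1), and tumors are numbered as in the labels. The study enrolled dogs with untreated disease and left out those with earlier chemotherapy, radiation or immunotherapy. Age, sex and breed are not given for a single tumor. The study enrolled its bladder tumors as a Scottish terrier cohort and many of its lymphomas as a golden retriever cohort, so breed and tumor type cannot be told apart for TCC and only in part for lymphoma. Spread within a type is spread between dogs, and the number of arrays limits the precision.

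The matrix between cells is a network in which collagen fibers are joined by proteins of several kinds. Fibronectin and the matricellular proteins (SPARC, periostin, tenascin, thrombospondins) connect cells with the network and modulate adhesion. Small leucine-rich proteoglycans such as decorin and lumican coat collagen fibrils, versican is a large hyaluronan-binding proteoglycan, and fibrillins, fibulins and their partners build elastic fibers and microfibrils. Lysyl oxidases cross-link collagen and elastin, and nidogens, perlecan and agrin are parts of basement membranes, the thin sheets under epithelia and around vessels, muscle and nerve. Fibroblasts and related mesenchymal cells are the main source of most of these proteins, and a solid tumor holds such cells as stroma beside the tumor cells.

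Across the 4 types with replicates, the levels of the matrix genes went from sarcoma, at the top, through melanoma and TCC to lymphoma. Of the 41 genes, 24 had their highest type mean in sarcoma, 11 in melanoma, 6 in TCC and 0 in lymphoma. Lymphoma had the lowest mean for 27, TCC for 9, melanoma for 3 and sarcoma for 2. By limma's F test over the 19 tumors of these types, 30 of the 41 genes differed at an adjusted p under 0.05, where 35.6% of all kept genes did. By role, the genes that differed were 6 of 9 fibronectin and matricellular genes, 4 of 5 other glycoproteins, 6 of 8 small leucine-rich proteoglycans with versican, 7 of 11 genes of elastic fibers and microfibrils, 4 of 4 lysyl oxidases and 3 of 4 basement membrane genes. SPARC had the highest F statistic of the set and ranked 49 of 9972 genes. The 11 that did not pass were TGFBI, TNC, COMP, CILP, FMOD, OGN, ELN, MFAP4, LTBP1, EMILIN1 and HSPG2.

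**Figure D1:**
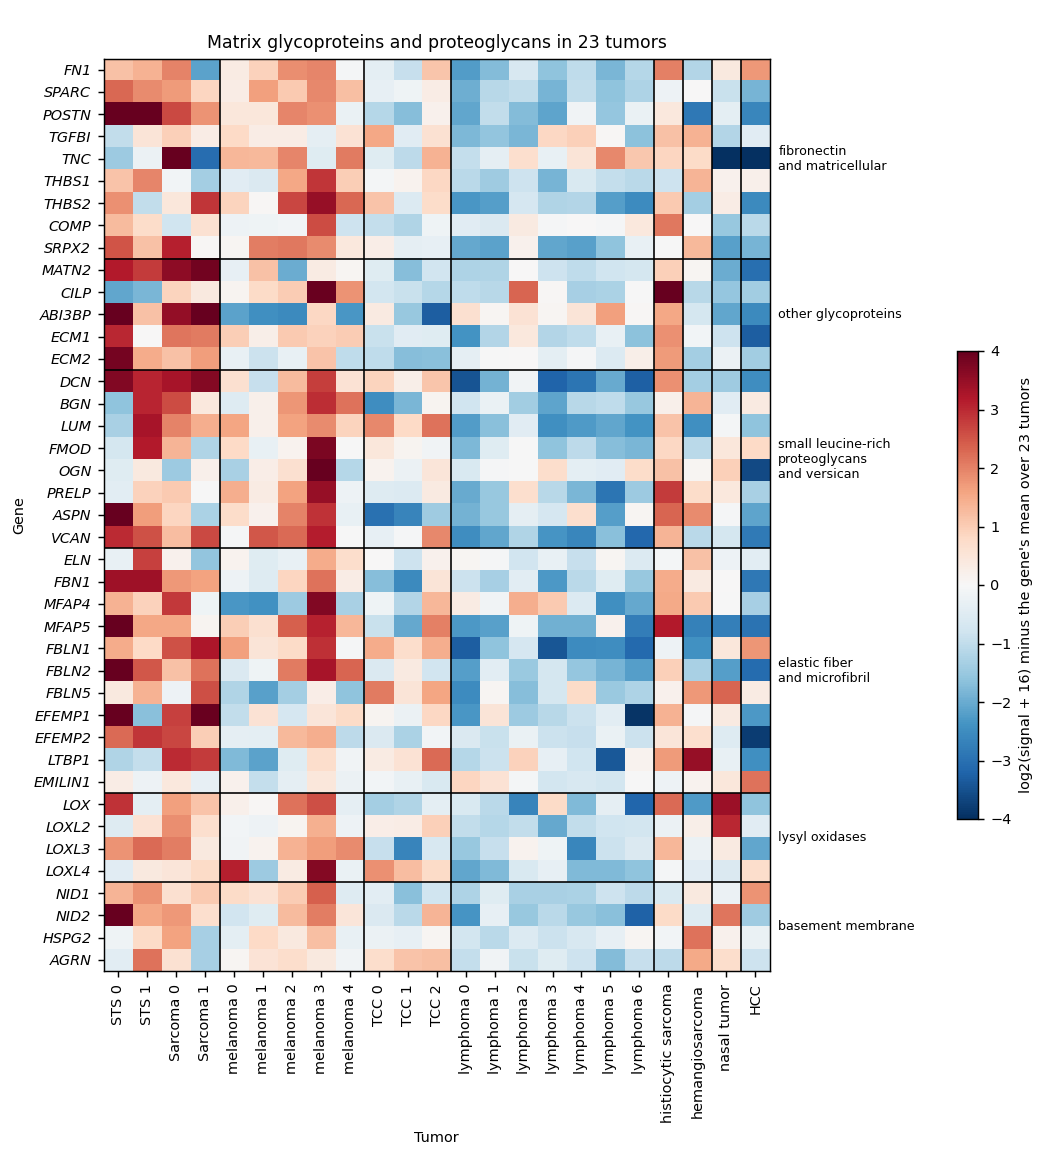
Level of the 41 kept matrix genes (vertical axis, grouped by role) in the 23 tumors (horizontal axis, grouped by type), as log2(signal + 16) minus the mean of the gene over all tumors. Colors saturate at a difference of 4. The 4 sarcomas and melanoma 3 are mostly red, the 7 lymphomas and the HCC mostly blue, and TNC stands out as the deepest blue of the HCC and the nasal tumor.

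The labels were checked against cell type markers before the matrix genes were compared. Summed signals of 8 melanocyte markers were 30016 to 67649 in the melanomas and at most 2215 in any other tumor. All 4 kept epithelial and all 4 urothelial markers were higher in TCC, all 5 T cell and all 4 kept B cell markers were higher in lymphoma, and the hepatocyte sum was 321804 in the HCC and at most 2139 elsewhere. The sarcomas were not uniform in these markers. The Schwann sum (2 genes measured) was 5760 in Sarcoma 0, 53 to 384 in the other sarcomas and 472 to 11915 in the melanomas. In Sarcoma 0, CDH19 was 12.49 and S100B, the other Schwann gene, 4.45. Single lymphomas overlapped other tumors. The T cell sum was 4426 (lymphoma 1) to 61498 in lymphoma, and 5629 in Sarcoma 1, 5714 in the hemangiosarcoma and 10964 in the histiocytic sarcoma. The B cell sum was 589 (lymphoma 6) to 20245 in lymphoma and at most 1599 elsewhere, and it was 2706 in lymphoma 1. The fibroblast list (PDGFRA, PDGFRB, FAP, THY1, DPT, PRRX1 and 3 collagen genes) was measured for 9 of 9 genes, and none was dim in every tumor. Its summed signal was 40546 to 95440 in sarcoma, 17011 to 79476 in melanoma, 15878 to 26289 in TCC and 3811 to 8962 in lymphoma, and the single tumors had 2352 (HCC), 5657 (nasal tumor), 7656 (hemangiosarcoma) and 16499 (histiocytic sarcoma). All 9 fibroblast markers were called higher in sarcoma and 7 lower in lymphoma, the types at the top and bottom for the matrix genes. Between these types the markers differed: 1 was lower in melanoma, and 1 was higher and 2 lower in TCC. PDGFRA was 11.67 to 12.62 in TCC, above every sarcoma (10.58 to 11.51). The part of the fibroblast markers in the differences below was not tested. In bulk biopsies, fewer cells of a type and less RNA per cell cannot be told apart. The ratio of 3′ to 5′ signal of the actin and GAPDH control probesets, a sign of RNA quality, was 5.48 to 7.24 on the log2 scale in lymphoma and 5.79 to 8.81 in melanoma, with sarcoma (6.10 to 8.62) and TCC (6.22 to 6.95) inside the range of melanoma. Melanoma 3 stood apart from the other 4 melanomas: its mean z-score over the 41 genes was 1.31 against -0.02 to 0.46, and its fibroblast sum was 79476 against 17011 to 39243. That sum adds linear signals, so the bright collagen genes weigh most in it (COL1A1 was 15.17 in melanoma 3). The 3 collagen genes, FAP, THY1 and PDGFRB were highest of the melanomas in melanoma 3. DPT (7.31) was the lowest, and PRRX1 (10.05) and PDGFRA (8.91) were below melanoma 2 (11.0 and 8.99).

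Lymphoma was compared with the unweighted mean of sarcoma, melanoma and TCC to ask which matrix genes were low in a tumor of lymphocytes. Here 27 of the 41 genes were lower and 0 were higher, called where the adjusted p was under 0.05 and the log2 fold change was 1 or more in either direction. Among all kept genes 12.1% were lower and 6.95% higher. No gene of the set was higher at an unadjusted p under 0.05 either (count 0 by limma, the tool used for every test here). The median log2 fold change was -1.57 over the set and 0.07 over all kept genes. Called lower were 6 of 9 fibronectin and matricellular genes, 2 of 5 other glycoproteins, 5 of 8 small leucine-rich proteoglycans with versican, 7 of 11 elastic fiber genes, 4 of 4 lysyl oxidases and 3 of 4 basement membrane genes. In 4 genes (SPARC, VCAN, FBLN1 and LOXL2) every lymphoma lay below every sarcoma, melanoma and TCC, where 1.49% of all kept genes did.

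The 4 largest differences in lymphoma were in DCN, FBLN1, VCAN and LUM, of which all but FBLN1, a fibulin, are proteoglycans. DCN (decorin, which binds collagen fibrils) was 15.01 and 14.36 in STS 0 and 1, 14.61 and 14.98 in Sarcoma 0 and 1, 11.95, 10.39, 12.58, 14.06 and 11.89 in melanomas 0 to 4, 12.18, 11.53 and 12.42 in TCC 0 to 2, and 7.85 at the lowest, 8.37 at the median and 11.17 at the highest in the 7 lymphomas. The 4 sarcomas were above all other replicated tumors, and the lymphomas were below all others but for lymphoma 2, which passed melanoma 1. The log2 fold change of lymphoma was -4.10 with a standard error of 0.44 (adjusted p = 1.99e-06).

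VCAN (versican) was 13.12 and 12.67 in the STS, 11.36 and 12.76 in the other sarcomas, 10.08, 12.62, 12.39, 13.28 and 10.12 in melanomas 0 to 4, 9.79, 10.07 and 12.06 in the TCC, and 7.0, 7.76 and 8.93 at the lowest, median and highest lymphoma. All lymphomas were below all other replicated tumors, while sarcoma, melanoma and TCC overlapped. Its log2 fold change in lymphoma was -3.70 (SE 0.45, adjusted p = 6.29e-06). LUM (lumican, a keratan sulfate proteoglycan of collagen fibrils) was 9.01 and 13.59 in the STS, 12.29 and 11.76 in Sarcoma 0 and 1, 11.89, 10.51, 11.90, 12.18 and 11.20 in the melanomas, 12.23, 11.11 and 12.47 in the TCC, and 7.84 at the lowest, 8.05 at the median and 9.84 at the highest lymphoma. The type means of LUM were 11.66 in sarcoma, 11.54 in melanoma and 11.94 in TCC, and STS 0, the lowest of them, lay below lymphoma 2. LUM was lower in lymphoma by a log2 fold change of -3.35 (SE 0.46, adjusted p = 2.16e-05). PRELP (log2 fold change -1.95), which anchors matrix to basement membranes, and FMOD (fibromodulin, -1.77) were also lower, and BGN (biglycan, -1.52, adjusted p = 0.0519), ASPN and OGN did not pass. The FMOD call ended when lymphoma 0 or lymphoma 6 was left out. FMOD passed the filter on dim genes, set at 7.03, only through STS 1 (9.32), Sarcoma 0 (7.48) and melanoma 3 (9.9). Every lymphoma (4.32 to 6.11) and every TCC (5.99 to 6.59) lay below that level. The FMOD call thus compares dim signals with types in which few tumors were brighter.

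Matricellular and elastic fiber genes were lower in lymphoma as well. SPARC (osteonectin, a collagen-binding protein) was 15 and 14.60 in the STS, 14.43 and 13.57 in the other sarcomas, 13.02, 14.36, 13.76, 14.63 and 13.90 in the melanomas, 12.37, 12.54 and 13.00 in the TCC, and 10.76, 11.49 and 11.74 at the lowest, median and highest lymphoma. Here the lymphomas lay below the TCC without overlap, and the TCC lay below every melanoma and sarcoma. The log2 fold change of SPARC in lymphoma was -2.34 (SE 0.23, adjusted p = 7.31e-07), the smallest adjusted p of the set. THBS2 (thrombospondin 2, an inhibitor of vessel growth) was 11.16 and 8.35 in the STS, 9.78 and 12.21 in Sarcoma 0 and 1, 10.24, 9.40, 12.02, 12.84 and 11.63 in the melanomas, 10.47, 8.78 and 10.06 in the TCC, and 6.81, 7.15 and 8.66 at the lowest, median and highest lymphoma. Only STS 1 among the solid tumors of these types lay below the highest lymphoma. THBS2 differed by -2.87 (SE 0.50, adjusted p = 2.84e-04), and SRPX2 (-2.41), POSTN (-2.30), FN1 (fibronectin, -1.97) and THBS1 (-1.64) were lower too. SRPX2 had 1 probeset and a median of 4.34 in lymphoma, near the floor set by the pseudocount of 16. Its fold change ran from -3.72 to -1.43 over the alternatives and left-out tumors, though the call held. TGFBI, TNC and COMP were not called in lymphoma.

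Of the elastic fiber genes, FBLN1 (fibulin 1) differed most. It was 10.59 and 9.89 in the STS, 11.64 and 12.34 in the other sarcomas, 10.75, 9.63, 9.88, 12.02 and 9.05 in the melanomas, 10.57, 9.80 and 10.54 in the TCC, and 5.67, 6.59 and 8.42 at the lowest, median and highest lymphoma. All 12 solid tumors of the replicated types were above all lymphomas. The log2 fold change was -3.91 (SE 0.44, adjusted p = 2.71e-06). MFAP5 (-2.78), FBLN2 (-2.68), EFEMP1 (-2.22), FBN1 (-1.75), FBLN5 (-1.38) and EFEMP2 (-1.24) followed, and ELN (elastin), MFAP4, LTBP1 and EMILIN1 were not called. The FBLN5 call ended without lymphoma 0, 2 or 5 or TCC 0.

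All 4 kept lysyl oxidases were lower in lymphoma. LOXL2 was 6.96 and 8.06 in the STS, 9.33 and 8.14 in the other sarcomas, 7.36, 7.27, 7.57, 8.90 and 7.27 in the melanomas, 7.74, 7.76 and 8.42 in the TCC, and 5.41, 6.48 and 6.74 at the lowest, median and highest lymphoma, a separation with no overlap (log2 fold change -1.55, SE 0.31, adjusted p = 7.52e-04). LOXL4 was 6.48 and 7.32 in the STS, 7.41 and 7.71 in the other sarcomas, 10.04, 5.47, 7.27, 10.60 and 6.68 in the melanomas, 8.75, 8.16 and 7.70 in the TCC, and 4.86, 5.17 and 6.60 at the lowest, median and highest lymphoma. Melanomas 0 and 3 were more than 2 log2 units above the other 3 melanomas, and melanoma 1 and STS 0 fell within the lymphomas. LOXL4 differed by -2.30 (SE 0.55, adjusted p = 3.53e-03), LOX by -1.68 and LOXL3 by -1.34. Without lymphoma 2 or lymphoma 6, LOX was no longer called.

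Among basement membrane genes, NID2 (nidogen 2, log2 fold change -2.52), NID1 (-1.42) and AGRN (agrin, -1.38) were lower in lymphoma and HSPG2 (perlecan) was not called. HSPG2 is a mean of 3 probesets, of which the brightest was 8.79 in lymphoma and 10.28 to 10.72 in the other types. Of the dimmer probesets, 1 was lower in lymphoma (5.25 against 6.11 to 6.14) and 1 was not (5.93 against 4.83 to 5.91). AGRN was 6.17 and 8.77 in the STS, 7.20 and 5.25 in Sarcoma 0 and 1, 6.66, 7.14, 7.30, 6.98 and 6.45 in the melanomas, 7.28, 7.72 and 7.78 in the TCC, and 4.84, 5.69 and 6.45 at the lowest, median and highest lymphoma. Its range among the 4 sarcomas covered that of all other replicated tumors but 1 lymphoma. The call for AGRN ended with a pseudocount of 64.

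**Figure D2:**
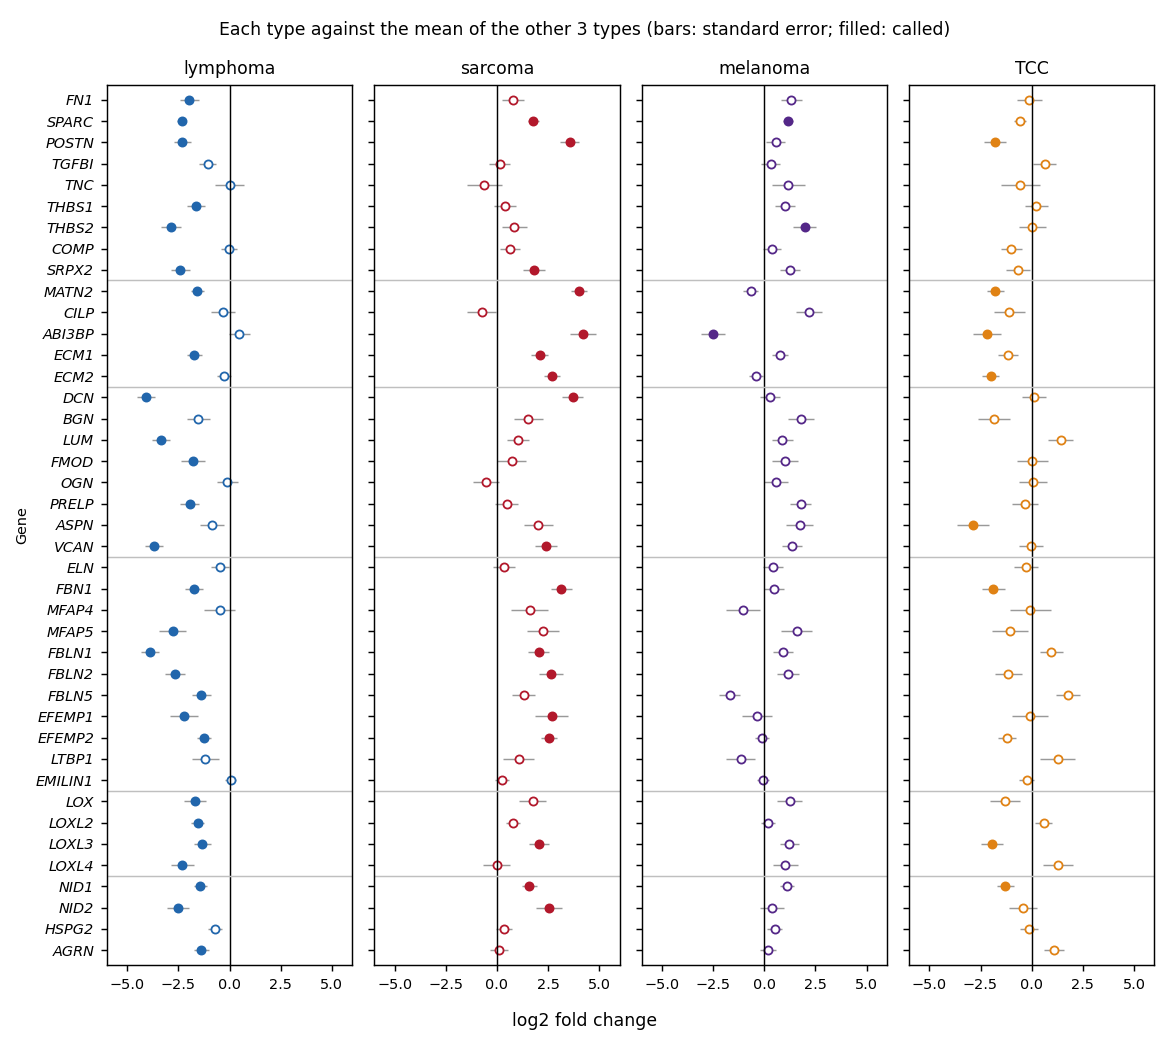
Log2 fold change (horizontal axis) of the 41 kept matrix genes (vertical axis, grouped by role) in each type against the mean of the other 3 types, with the standard error from limma as bars and called genes as filled points. Called points lie left of 0 in lymphoma (27) and TCC (8), right of 0 in sarcoma (17), and in melanoma 2 lie right and 1 left.

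Sarcoma, the tumors of connective tissue, was compared with the mean of lymphoma, melanoma and TCC. Of the 41 genes, 17 were higher and 0 lower, where 4.33% of all kept genes were higher and 1.71% lower. By limma, 0 genes of the set were lower at an unadjusted p under 0.05. The median log2 fold change was 1.59 over the set and -0.04 over all kept genes. Higher were 3 fibronectin and matricellular genes, 4 of the 5 other glycoproteins, 2 proteoglycans, 5 elastic fiber genes, 1 lysyl oxidase and 2 basement membrane genes. When each type was set against all other tumors of the 23 as 1 group, 7 of the 17 stayed called (POSTN, MATN2, ABI3BP, ECM2, DCN, FBN1 and EFEMP2).

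The other glycoproteins separated sarcoma most. MATN2 (matrilin 2, a filament-forming adaptor protein) was 11.37 and 11.01 in STS 0 and 1, 11.79 and 12.07 in Sarcoma 0 and 1, 7.87, 9.37, 6.22, 8.52 and 8.27 in melanomas 0 to 4, 7.73, 6.49 and 7.44 in the TCC, and 6.97, 7.36 and 8.21 at the lowest, median and highest lymphoma. The 4 sarcomas were above every other tumor of the 23, and the other 3 types overlapped. The log2 fold change was 4.01 (SE 0.39, adjusted p = 1.83e-05). ECM2 was 12.38 and 10.06 in the STS, 9.75 and 10.24 in Sarcoma 0 and 1, 8.27, 7.69, 8.28, 9.70 and 7.54 in the melanomas, 7.54, 6.85 and 6.88 in the TCC, and 8.01, 8.51 and 8.80 at the lowest, median and highest lymphoma. Sarcoma 0, the lowest sarcoma, passed melanoma 3 by a small margin. ECM2 was higher in sarcoma by 2.68 (SE 0.39, adjusted p = 3.72e-04). MATN2, ECM2 and DCN were the 3 genes in which every sarcoma lay above every melanoma, TCC and lymphoma, and 0.461% of all kept genes were so placed.

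ABI3BP, a matrix protein of connective tissue, had a pattern of its own. It was 12.65 and 9.85 in the STS, 12.20 and 13.25 in the other sarcomas, 6.54, 6.21, 6.14, 9.50 and 6.34 in melanomas 0 to 4, 9.05, 7.15 and 5.39 in the TCC, and 8.73, 9.20 and 10.32 at the lowest, median and highest lymphoma. Lymphomas lay above 4 of the 5 melanomas, and the gap between melanoma 3 and the other melanomas was larger than the whole range of those 4. ABI3BP was higher in sarcoma by 4.21 (SE 0.64, adjusted p = 5.86e-04), lower in melanoma by -2.51 (SE 0.59, adjusted p = 0.0144) and lower in TCC by -2.18 (SE 0.70, adjusted p = 0.0453). The TCC call was the least stable, ending when any of 11 tumors was left out, and the melanoma call ended without melanoma 1. ECM1 was higher in sarcoma by 2.09, and CILP (-0.75 in sarcoma) was not called.

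In the matricellular group, POSTN (periostin) was 14.23 in both STS 0 and STS 1, 12.83 and 12.00 in Sarcoma 0 and 1, 10.65, 10.64, 12.13, 12.02 and 9.94 in the melanomas, 9.06, 8.50 and 10.35 in the TCC, and 8.08, 8.64 and 10.06 at the lowest, median and highest lymphoma. Melanomas 2 and 3 were level with Sarcoma 1, and all other tumors of the replicated types were lower than the sarcomas. POSTN was higher in sarcoma by 3.55 (SE 0.48, adjusted p = 2.18e-04) and SPARC by 1.77 (SE 0.27, adjusted p = 6.45e-04). SRPX2 was called at 1.80 (adjusted p = 0.0474), a call lost in 13 of the 19 fits that left out 1 tumor.

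FBN1 (fibrillin 1, the main protein of microfibrils) was 13.93 and 13.94 in the STS, 12.29 and 12.16 in Sarcoma 0 and 1, 10.35, 10.04, 11.41, 12.72 and 10.85 in the melanomas, 8.86, 7.99 and 11.08 in the TCC, and 8.25, 9.47 and 10.12 at the lowest, median and highest lymphoma. Melanoma 3 alone reached the sarcomas. EFEMP2 (fibulin 4, needed for elastic fiber assembly) was 12.24 and 12.83 in the STS, 12.63 and 10.96 in Sarcoma 0 and 1, 9.62, 9.57, 11.26, 11.43 and 8.92 in the melanomas, 9.40, 8.71 and 9.87 in the TCC, and 9.06, 9.11 and 9.72 at the lowest, median and highest lymphoma. In 3 sarcomas EFEMP2 was above all other tumors, and Sarcoma 1 lay below melanomas 2 and 3. The log2 fold changes in sarcoma were 3.15 for FBN1 (SE 0.51, adjusted p = 9.62e-04) and 2.56 for EFEMP2 (SE 0.39, adjusted p = 5.93e-04). FBLN2 (2.66), EFEMP1 (2.67) and FBLN1 (2.04) were also higher. EFEMP1 spread widely among the sarcomas, from 6.48 in STS 1 to 12.35 in STS 0, and its call was lost in 14 of 19 fits that left out 1 tumor. FBLN1 was no longer called without Sarcoma 0 or Sarcoma 1, and FBLN2 without STS 0. With the 2 STS alone as sarcoma, SRPX2 (1.93), ECM1 (1.79), FBLN1 (1.16) and EFEMP1 (1.63) were no longer called.

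DCN was higher in sarcoma by 3.70 (SE 0.53, adjusted p = 3.17e-04) and VCAN by 2.40 (SE 0.53, adjusted p = 9.32e-03). LOXL3 was the lysyl oxidase that was higher in sarcoma. It was 9.19 and 9.65 in the STS, 9.43 and 7.79 in Sarcoma 0 and 1, 7.24, 7.53, 8.77, 9.06 and 9.29 in the melanomas, 6.47, 4.74 and 6.76 in the TCC, and 4.77, 6.52 and 7.53 at the lowest, median and highest lymphoma. Sarcomas and melanomas overlapped, and both stood mostly above the TCC and the lymphomas. The log2 fold change in sarcoma was 2.07 (SE 0.49, adjusted p = 0.0141), and the call ended without STS 1.

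NID1 (nidogen 1, which links laminin to type IV collagen) was 8.49 and 8.93 in the STS, 7.77 and 8.18 in Sarcoma 0 and 1, 7.90, 7.71, 8.17, 9.52 and 6.62 in the melanomas, 6.73, 5.47 and 6.34 in the TCC, and 5.85, 5.90 and 6.66 at the lowest, median and highest lymphoma. NID2 was 12.86 and 9.82 in the STS, 10.01 and 8.93 in Sarcoma 0 and 1, 7.50, 7.78, 9.54, 10.32 and 8.75 in the melanomas, 7.71, 7.19 and 9.62 in the TCC, and 5.03, 6.76 and 7.96 at the lowest, median and highest lymphoma. Every sarcoma was above every TCC and lymphoma for NID1, and for NID2 TCC 2 lay within the sarcomas. NID1 was higher in sarcoma by 1.59 (SE 0.37, adjusted p = 0.0127) and NID2 by 2.56 (SE 0.63, adjusted p = 0.017). Leaving out STS 1 ended the NID1 call and leaving out STS 0 the NID2 call.

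**Figure D3:**
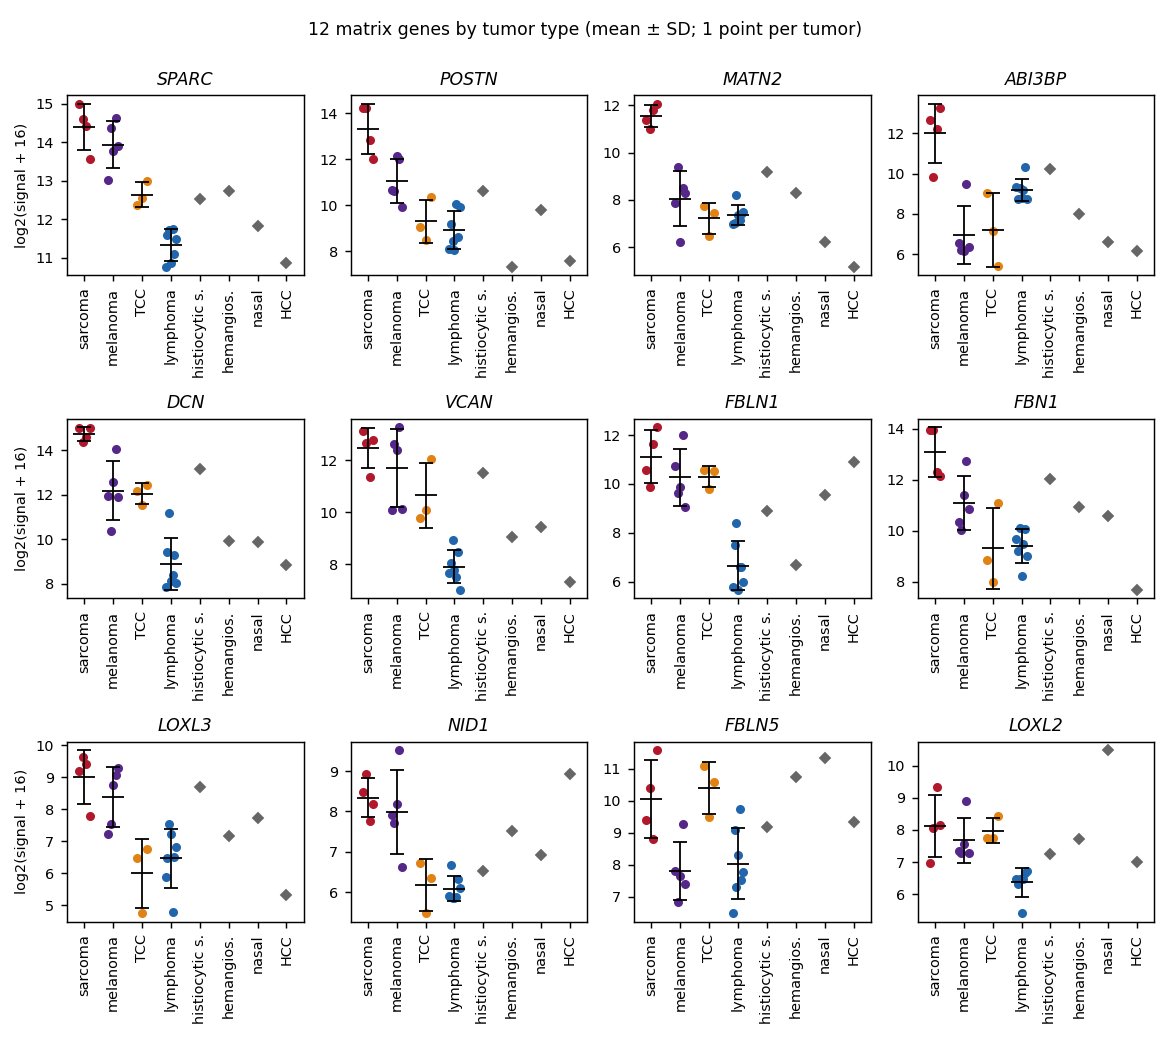
Log2 signal (vertical axis, log2(signal + 16), a separate scale for each gene) of 12 matrix genes in 23 tumors by type (horizontal axis), with 1 point per tumor, and the mean and SD over tumors as black bars for the 4 replicated types (diamonds are single tumors). The 4 sarcomas lie above all other tumors for MATN2 and DCN, the lymphomas lie below the other 3 replicated types for SPARC, VCAN, FBLN1 and LOXL2, and FBLN5 is higher in the 3 TCC than in the 5 melanomas.

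Melanoma against the mean of the other 3 types had few calls. Of the 41 genes 2 were higher (SPARC and THBS2) and 1 lower (ABI3BP), where 2.55% of all kept genes were higher and 1.77% lower, and the median log2 fold change of the set was 0.78 against -0.05 over all kept genes. SPARC was higher by 1.15 (SE 0.25, adjusted p = 9.30e-03) and THBS2 by 1.98 (SE 0.56, adjusted p = 0.0399). Without melanoma 3, 0 were called higher by limma. At an unadjusted p under 0.05, 13 genes were higher and 2 lower, a threshold at which all kept genes were not counted. CILP (2.17, adjusted p = 0.0516), PRELP (1.78, adjusted p = 0.0506) and FBLN5 (-1.70, adjusted p = 0.0513) were close to the threshold for a call. With all other tumors of the 23 as 1 group, none of the 3 calls held.

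In TCC, a carcinoma of the bladder lining, 8 of the 41 genes were lower and 0 were higher against the other 3 types, where 4.36% of all kept genes were lower and 6.82% higher. By limma, 3 of the 41 genes were higher at an unadjusted p under 0.05, where the share of all kept genes was not counted. The lower genes were ASPN (asporin, log2 fold change -2.88), ABI3BP (-2.18), ECM2 (-2.01), LOXL3 (-1.96), FBN1 (-1.88), POSTN (-1.80), MATN2 (-1.77) and NID1 (-1.29), and the median over the set was -0.32 against -0.08 over all kept genes. LOXL3, FBN1, POSTN, MATN2 and NID1 were also called lower in lymphoma, so these were not low in TCC alone. Their means in TCC and lymphoma were 5.99 and 6.46 (LOXL3), 9.31 and 9.40 (FBN1), 9.31 and 8.93 (POSTN), 7.22 and 7.37 (MATN2), and 6.18 and 6.08 (NID1). Of the genes with the largest differences in lymphoma, DCN (0.11), VCAN (-0.05), FBLN1 (0.96) and LUM (1.42) were not called here. The mean of the other 3 types includes lymphoma, so this does not place TCC against the solid types. Means in TCC, sarcoma and melanoma were 12.04, 14.74 and 12.17 for DCN and 10.64, 12.48 and 11.70 for VCAN. For FBLN1 they were 10.31, 11.11 and 10.26, and for LUM 11.94, 11.66 and 11.54. The count of 8 rested on the 3 tumors, as it was 3 without TCC 0 and 1 without TCC 1. None of the 8 was called with all other tumors of the 23 as 1 group.

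Pairs of solid types were compared to leave lymphoma out of the contrast. Between sarcoma and TCC, 13 of the 41 genes were higher in sarcoma and 0 lower, where 4.48% of all kept genes were higher and 4.99% lower, and by limma 0 were lower at an unadjusted p under 0.05. The differences were largest for ABI3BP (4.79), MATN2 (4.34), POSTN (4.02), FBN1 (3.77), ASPN (3.68) and ECM2 (3.52), followed by LOXL3 (3.02), FBLN2 (2.85), EFEMP2 (2.84), DCN (2.70), ECM1 (2.43), NID1 (2.16) and SPARC (1.76). ASPN was 14.25 and 11.89 in the STS, 11.07 and 8.96 in Sarcoma 0 and 1, and 7.23, 7.59 and 8.78 in the TCC, so that Sarcoma 1 was close to TCC 2. ASPN and DCN were no longer called without TCC 0 or TCC 1, FBLN2 without STS 0, TCC 0 or TCC 2, and LOXL3 and NID1 without TCC 1. With the 2 STS alone as sarcoma, DCN (2.64, adjusted p = 0.0729) and ECM1 (2.13, adjusted p = 0.0718) were not called.

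Between sarcoma and melanoma, 6 genes were higher in sarcoma and 0 lower, where 0.852% of all kept genes were higher and 0.933% lower. By limma, 1 gene of the set was lower at an unadjusted p under 0.05, where the share of all kept genes was not counted. The 6 were ABI3BP (5.04, SE 0.75, adjusted p = 9.66e-04), MATN2 (3.51, SE 0.46, adjusted p = 2.15e-04), DCN (2.57), ECM2 (2.31), POSTN (2.25) and EFEMP2 (2.0). MATN2, ABI3BP and ECM2 were called in all 19 fits that left out 1 tumor, while DCN, POSTN and EFEMP2 were lost in 7, 9 and 6 of them, among them those without STS 0, STS 1, melanoma 0, melanoma 1 or melanoma 4. With the 2 STS alone as sarcoma, DCN (2.51, adjusted p = 0.116) was not called. The median difference over the set was 0.39.

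Between melanoma and TCC, 4 genes were higher in melanoma and 1 lower, where 3.53% of all kept genes were higher and 5.73% lower. ASPN (3.45), LOXL3 (2.38), NID1 (1.81) and SPARC (1.30) were higher, and FBLN5 (-2.61, SE 0.69, adjusted p = 0.0191) was lower. FBLN5 (fibulin 5, an elastic fiber protein) was the only one of the 11 elastic fiber genes called here, and the differences of the 11 had no common direction, with 5 below 0 and a median of 0.14. It was 7.80, 6.84, 7.66, 9.28 and 7.40 in melanomas 0 to 4, 11.09, 9.51 and 10.60 in TCC 0 to 2, 9.40, 10.39, 8.81 and 11.59 in STS 0 and 1 and Sarcoma 0 and 1, and 6.48, 7.76 and 9.76 at the lowest, median and highest lymphoma. Every TCC was above every melanoma, and sarcomas and TCC overlapped. The FBLN5 call ended without TCC 0 or TCC 2, and without TCC 1 0 genes were called higher in melanoma by limma.

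The 11 genes that did not pass the F test included FMOD, which was called lower in lymphoma (log2 fold change -1.77, adjusted p = 0.0266), and several that varied widely between tumors. TNC (tenascin C) ran from 6.54 in Sarcoma 1 to 13.98 in Sarcoma 0 within 1 group, with type means of 9.50 in sarcoma, 10.83 in melanoma, 9.54 in TCC and 9.95 in lymphoma. OGN (osteoglycin) was 11.86 in melanoma 3 and 6.42 to 8.60 in all other tumors of the replicated types. MFAP4, a microfibril-associated glycoprotein, was 10.66 in melanoma 3 and 4.53 to 5.64 in the other melanomas. CILP, a cartilage protein, was 10.49 in the histiocytic sarcoma, 10.29 in melanoma 3 and 8.67 in lymphoma 2, against 5.0 to 6.40 in the other lymphomas. Type means of ELN were 5.78 to 6.44 and those of EMILIN1 6.87 to 7.25.

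The genes of the set varied together. Over the 23 tumors, the median Pearson correlation of the 820 pairs was 0.39 and 92.6% of the pairs were above 0, against 0.01 and 51.7% over all pairs of kept genes. These are descriptions, as the genes of a tumor share its array and the tumors fall into types. With the type means removed, over 19 tumors, the median was 0.24 and 77.8% of the pairs were above 0. DCN followed the mean of the other 40 genes most closely (0.90), then VCAN (0.88), SPARC (0.88) and FBN1 (0.87), and 30 of the 41 genes were above 0.5. Within types, MFAP4 (0.81), EFEMP2 (0.77), DCN (0.74) and PRELP (0.74) were highest, and MATN2 (0.02) and EFEMP1 (0.03) were near 0 despite 0.66 and 0.58 over all tumors. EMILIN1 (-0.11) and TNC (0.18) did not follow the others over the 23 tumors.

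Mean z-scores over the 41 genes sum up the same values for each tumor, so they are no separate support for the comparisons. They were 0.82 and 0.88 in STS 0 and 1, 0.96 and 0.42 in Sarcoma 0 and 1, 0.05, -0.02, 0.46, 1.31 and 0.11 in melanomas 0 to 4, -0.09, -0.42 and 0.18 in TCC 0 to 2, and -0.87, -0.64 and -0.31 at the lowest, median and highest lymphoma. The lymphomas did not overlap the sarcomas, while melanoma spanned from TCC to above the sarcomas. By role, Sarcoma 1 was high for other glycoproteins (1.41) and low for basement membrane genes (-0.41), while STS 1 was the highest sarcoma for basement membrane genes (1.37) and the lowest for other glycoproteins (0.43).

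The 4 tumors without a replicate were each set against the other 22 by the difference from their mean, and no test was possible. In the histiocytic sarcoma, whose cells are related to macrophages and dendritic cells, 7 of the 41 genes were at least 2 log2 units higher and 0 lower, where 2.75% of all kept genes were that much higher and 1.28% lower. They were CILP (difference 4.34), MFAP5 (3.32), PRELP (2.93), ASPN (2.44), LOX (2.38), COMP (2.20) and FN1 (2.12), and FN1 (12.04) and CILP (10.49) were the highest of all 23 tumors. The median difference of the set was 1.09, with 30 of 41 genes above the mean of the others. Its macrophage marker sum was 44105, against 2132 to 18166 in the replicated types and 53670 in the hemangiosarcoma, and its fibroblast sum of 16499 lay within the range of TCC.

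In the HCC, 17 genes were at least 2 log2 units lower and 1 higher, where 9.36% of all kept genes were that much lower and 4.83% higher. The median difference was -1.67 for the set and -0.32 for all kept genes. Differences were largest for TNC (-5.56), EFEMP2 (-3.95), OGN (-3.78), ECM1 (-3.46), FBLN2 (-3.21), MATN2 (-3.17), MFAP5 (-3.08) and FBN1 (-3.0), and for each of these 8 and for THBS2 the HCC was the lowest of the 23 tumors. Against that direction, EMILIN1 was highest of all tumors in the HCC (9.37, difference 2.26), and FBLN1 (10.88, 1.86), NID1 (8.93, 1.86) and FN1 (11.76, 1.82), the last a plasma protein made by hepatocytes, were above the mean of the others. The 5 probesets of EMILIN1 ran from a correlation of -0.42 to 0.84 with each other.

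In the nasal tumor, 4 genes were at least 2 log2 units higher and 6 lower, where 3.1% of all kept genes were that much higher and 1.5% lower. LOX (11.16, difference 3.58) and LOXL2 (10.48, 3.15), both lysyl oxidases, were the highest of the 23 tumors, and FBLN5 (11.35, 2.45) and NID2 (10.40, 2.23) were second highest. TNC (5.07, difference -4.72) was lowest but for the HCC, and MFAP5, FBLN2, SRPX2, ABI3BP and MATN2 were lower by 2.09 to 2.85. The other lysyl oxidases, LOXL3 (0.36) and LOXL4 (-0.60), lay near the mean of the others. FBN2 (fibrillin 2), too dim elsewhere to pass the filter, was 10.50 in the nasal tumor and at most 9.36 in any other, in STS 1.

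In the hemangiosarcoma, a tumor of vessel-lining cells, 2 genes were at least 2 log2 units higher and 5 lower, where 3.24% of all kept genes were that much higher and 1.67% lower. LTBP1 (11.72, difference 3.63), which holds latent TGF-beta in the matrix, and HSPG2 (9.43, 2.29), a proteoglycan of vascular basement membrane, were the highest of the 23 tumors. Lower were POSTN (7.33, -2.99), the lowest of the 23 tumors, MFAP5 (-2.83), LUM (-2.57), FBLN1 (-2.53) and LOX (-2.37). The 3 probesets of HSPG2 correlated at -0.15 to 0.55. The endothelial marker sum of this tumor was 30169 against at most 7919 in the replicated types. Its macrophage sum (53670) and its smooth muscle and pericyte sum (26314) were also the highest of the 23 tumors, and the part of these markers in the matrix differences was not tested.

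**Figure D4:**
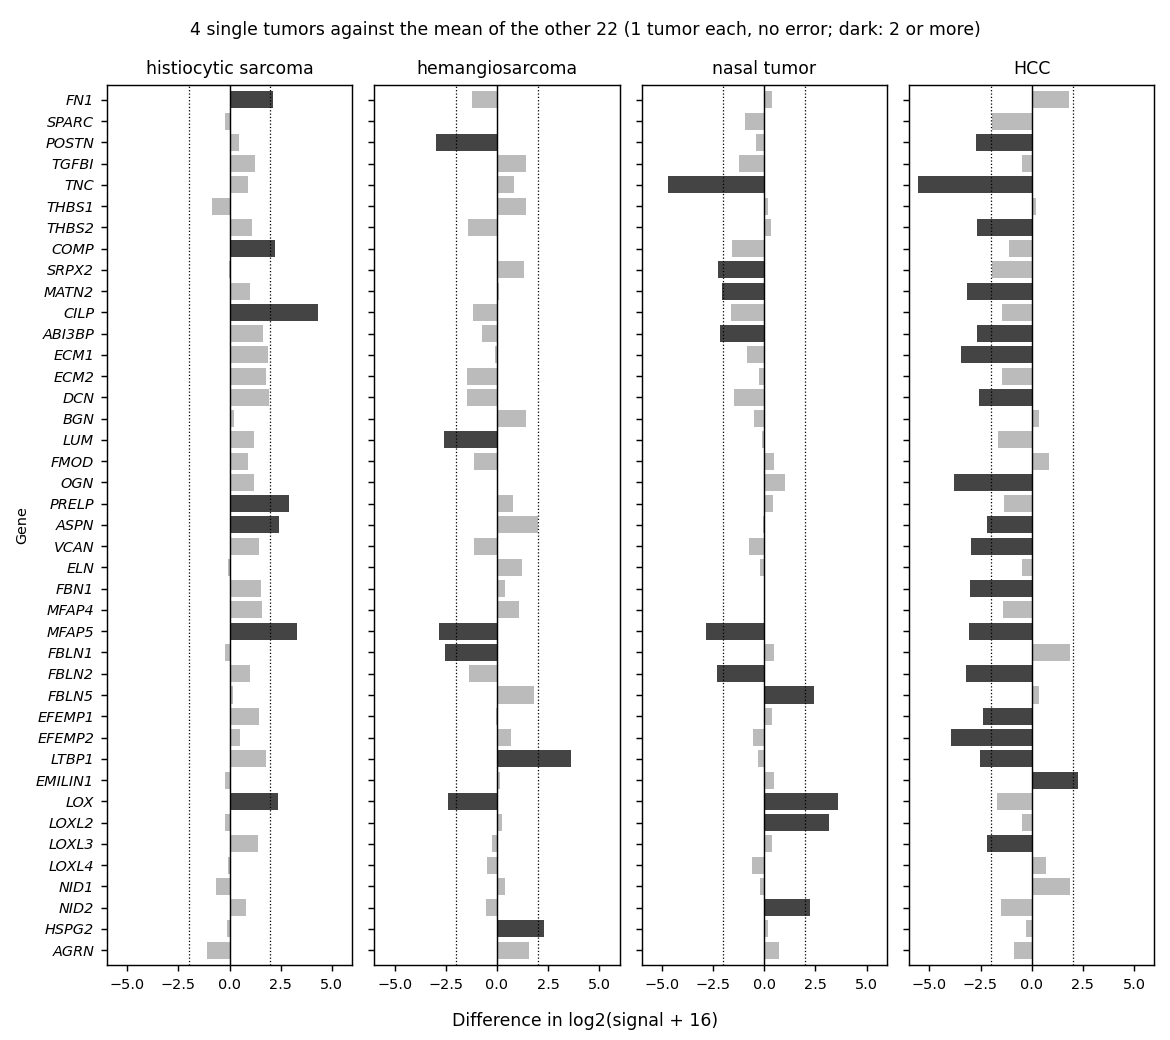
Difference in log2(signal + 16) (horizontal axis) of the 41 kept matrix genes (vertical axis) between each of 4 single tumors and the average of the other 22. No error is drawn as each is 1 tumor; dotted lines and dark bars mark 2 or more in size. Dark bars point right for 7 genes in the histiocytic sarcoma and left for 17 in the HCC, with LOX and LOXL2 the longest right bars of the nasal tumor and LTBP1 that of the hemangiosarcoma.

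Genes that make and process the collagens these proteins bind were set beside them. Among all kept genes, 35.6% passed the F test. In sarcoma 4.33% of them were higher and 1.71% lower, and in lymphoma 12.1% were lower and 6.95% higher. Of 12 listed fibrillar and associated collagens, 10 were kept, 9 passed the F test, 8 were higher and 0 lower in sarcoma, and 8 were lower and 0 higher in lymphoma, with COL6A3 at 3.79 and COL1A2 at 2.85 in sarcoma. Of 8 kept genes for collagen modification and processing, 3 were higher in sarcoma and 5 lower in lymphoma, among them SERPINH1 (2.28 and -2.88), the collagen chaperone. Of 7 kept genes of the TGF-beta axis, which drives matrix synthesis, 2 were higher in sarcoma (TGFBR3 at 2.51 and TGFBR2 at 1.19). Only 1 of the 7 was lower in lymphoma (TGFB2 at -1.51), near the share of all kept genes, and TGFB1 was not called in any comparison. Of 4 kept genes among 12 other proteoglycans and link proteins, KERA (keratocan) was higher in sarcoma by 2.99 and lower in lymphoma by -2.32, and GPC3 and SDC1 were not called.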

How the data were processed

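Tumor RNA from 23 dogs was amplified with the NuGEN Ovation Pico WTA system and hybridized to the Affymetrix Canine Genome 2.0 array. Biopsies had passed the study's pathology review for a high share of tumor. Before deposit, the authors computed each intensity with MAS5, as 1 linear signal per probeset scaled within the array; the trimmed mean was 499.9 to 500.0 and the median signal 82.1 to 132.4, and 19.8% to 27.2% of the probesets lay below 16. MAS5 signals depend on the probes, so levels were not compared between genes. Of 42924 probesets, 29254 had 1 gene symbol in the platform annotation, 439 had several and were not used, and 13231 are unnamed here. Signals were turned to log2(signal + 16), averaged per gene, and kept where at least 3 of 23 arrays passed the median of all gene values, 7.03.

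The 19 tumors of the 4 replicated types were fitted together in limma 3.58.1 under R 4.3.3, using lmFit, then contrasts.fit, then eBayes with its variance trend. Tests were two-sided, with Benjamini-Hochberg adjustment over 9972 genes within a comparison. All p-values measure the spread between tumors. The steps were tested on simulated data with shifts of 4 log2 units, larger than most differences called here. That test says nothing on smaller shifts. No 2 arrays correlated above 0.935. The numbers in the sample titles did not pair tumors. As alternatives, a pseudocount of 1 or 64 was used, signals were quantile normalized, the filter or the variance trend was dropped, the brightest probeset stood for its gene, the title number was a block, STS alone stood for sarcoma, a type was set against all other tumors, or 1 tumor was left out.

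The genes, the lists and the comparisons were chosen with earlier results of these data known. For up to 3 genes per role with the largest F statistic, and for a gene called in a direction that most of its role did not take, values are given for each sarcoma, melanoma and TCC and as the lowest, median and highest of the 7 lymphomas. Role, marker and collagen lists were written from textbook knowledge.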

Additional observations from a re-analysis of the deposited data

Results flagged for a closer look

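In the 3 types with 4 or more tumors, the highest and the lowest tumor of each kept gene were tested for a gap to the nearest other tumor by Dixon's criterion. Of 123 groups tested, 11 had such a tumor, 6 in melanoma, 5 in lymphoma and 0 in sarcoma; chance alone marks about 1 group in 20. Melanoma 3 accounted for 5 of them. It was the highest melanoma for ABI3BP (9.50, the others 6.14 to 6.54), MFAP4 (10.66, the others 4.53 to 5.64), FMOD (9.90, the others 5.85 to 6.94), COMP (9.06, the others 5.64 to 6.36) and LOXL2 (8.90, the others 7.27 to 7.57). Melanoma 1 was the lowest melanoma for ECM1 (10.66, the others 11.33 to 11.46).

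Lymphoma 2 was the highest lymphoma for CILP (8.67, the others 5.0 to 6.40), LUM (9.84, the others 7.84 to 8.64) and MATN2 (8.21, the others 6.97 to 7.50). Lymphoma 5 was the highest for ABI3BP (10.32, the others 8.73 to 9.32), and lymphoma 3 was the lowest for LOXL2 (5.41, the others 6.33 to 6.74). The fibroblast marker sum was 8962 in lymphoma 2 and 3811 to 8212 in the other lymphomas, and 79476 in melanoma 3 against 17011 to 39243 in the other melanomas. Collagen genes weigh most in this sum, and DPT, another marker of the list, was lowest of the melanomas in melanoma 3 (7.31). The part of the fibroblast markers in these values was not tested.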

How the results depend on the processing

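Of the 79 calls of a matrix gene in a comparison, 31 held in every alternative and with every tumor left out, and 0 changed direction. Left out in turn, the tumors moved the counts as follows: higher in melanoma 0 to 4 (2 with all tumors), lower in melanoma 0 to 2 (1), higher in TCC 0 to 2 (0), lower in TCC 1 to 9 (8), higher in sarcoma than melanoma 3 to 8 (6), lower in sarcoma than melanoma 0 to 1 (0), higher in melanoma than TCC 0 to 7 (4) and lower in melanoma than TCC 0 to 1 (1). With each type against all other tumors, 30 calls were lost, and the counts were 7 higher in sarcoma, 0 lower in TCC and 0 in either direction in melanoma. In lymphoma, the calls of POSTN, MATN2, ECM1, FBN1, MFAP5, FBLN5, EFEMP2, LOX and LOXL3 were lost. This comparison includes the single tumors, and the cause of its losses was not tested. With the title number as a replicate block, 18 calls were lost, and 0 genes were higher in melanoma, 5 lower in TCC and 2 higher in melanoma than TCC. The title numbers do not pair the tumors: same-numbered tumors correlated at -0.122 to 0.088 after the type means were removed, and 5 of 19 correlated best with their own number. With the 2 STS alone as sarcoma, 7 calls were lost (SRPX2, ECM1, FBLN1 and EFEMP1 in sarcoma, DCN against melanoma, and DCN and ECM1 against TCC). Quantile normalization gave 5 genes higher in melanoma, and no filter and no variance trend gave 1 each. A pseudocount of 64 gave 2 lower in melanoma and 1 higher in TCC, as did the probeset with the highest mean signal. Among single tumors, a pseudocount of 64 gave 4 higher in the histiocytic sarcoma, 2 lower in the nasal tumor and 1 higher in the hemangiosarcoma. A pseudocount of 1 gave 3 higher in the HCC and 4 in the hemangiosarcoma, quantile normalization 2 higher in the HCC, and the probeset with the highest mean signal 4 lower in the histiocytic sarcoma. The cause of these moves was not tested. The other counts stayed within 1.5 times under every alternative. Signals near the pseudocount carry little information on fold change.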

Other observations

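Of the 5 matrix genes that were too dim to be tested, FBN2 and MFAP2 passed the filter level of 7.03 in 1 or 2 tumors, and SPON1, MATN3 and LTBP2 in none. FBN2, besides 10.50 in the nasal tumor and 9.36 in STS 1, was at most 6.91 in the other 21 tumors. MATN3 was 6.95 in lymphoma 0 and 6.16 in lymphoma 2, and 4.29 to 4.69 in the other lymphomas. MFAP2 was highest in STS 0 (7.77), and SPON1 was highest in the hemangiosarcoma (7.02) and lymphoma 1 (6.97). LTBP2 ranged from 4.54 to 6.39.

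Probesets of 1 gene did not always move together over the 23 tumors. The lowest correlation between probesets was 0.97 or more for SPARC (0.98), LUM (0.99), VCAN (0.99), FBN1 (0.97) and THBS2 (0.97), and it was below 0 for EMILIN1 (-0.42), LTBP2 (-0.21), HSPG2 (-0.15), SPON1 (-0.13), LOXL2 (-0.09) and COMP (-0.04). EMILIN1, HSPG2 and COMP did not pass the F test on the mean of their probesets. LOXL2 was called in lymphoma with the mean of 4 probesets, of which 1 was dim in every tumor.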
